A study of Mus musculus with 16 samples.

Results

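The microRNA miR-21 was measured in mouse liver tumours and in liver tissue without a tumour. It was found by its name on the array, was chosen with earlier results of these data known, and is 1 of 566 mouse microRNAs (miRNAs) on the array. The array carries 2 probes for it, of 1672 mouse probes in all.

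All 16 samples were liver of C3H/HeJ mice, a strain prone to liver tumours, and each was hybridised to its own one-colour Agilent miRNA array. The Ctnnb1 arm held 7 tumours with a mutation in Ctnnb1, the gene of beta-catenin, and 3 non-tumour liver controls, called phenobarbital controls here. All 10 samples of that arm came under phenobarbital, a drug that promotes the outgrowth of liver tumours. The Ha-ras arm held 3 tumours with a mutation in Ha-ras and 3 non-tumour liver controls, called untreated controls, all without phenobarbital (the agent is given as H2O). The series' design gives 1 intraperitoneal injection of the liver carcinogen DEN, at 10 or 90 µg per g body weight and at 2 or 6 weeks of age, to male mice. A 2-week interval was followed by 28 to 36 weeks on a diet with 0.05% phenobarbital or on a diet without it. The sample labels give 27 weeks of treatment, and their treatment protocol instead describes 28 days of phenobarbital in drinking water. The labels do not tell which dose or age applies to which sample, whether controls also received DEN, and whether each sample is a different mouse. P-values here thus set group differences against the spread among these samples. That spread may in part be technical, and the p-values may not extend to other mice. Tumour genotype and phenobarbital go together, so their contributions to a difference between the tumour kinds cannot be told apart. The DEN dose and age of injection may also differ between the arms, as the labels do not assign them to samples.

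MiR-21 is a small RNA of about the same length as other miRNAs that pairs through its seed, bases 2 to 8, with target messenger RNAs and lowers their output. Among its best known targets are Pdcd4, which restrains protein synthesis and growth, and the Sprouty proteins, which restrain signalling from Ras to MAP kinases. Its gene is a known target of AP-1, a transcription factor complex activated by that same Ras pathway, and of STAT3. Raised miR-21 has been reported in many tumour types, liver cancer among them.

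The array's name, mmu-miR-21, is the older name of mmu-miR-21a-5p in RefSeq. The mature sequences below are shown because probes for miR-21 face related mouse miRNAs. They are from RefSeq (GRCm38.p6), 5′ to 3′, with the seed in capitals.

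mmu-miR-21a-5p: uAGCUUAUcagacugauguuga

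mmu-miR-21a-3p: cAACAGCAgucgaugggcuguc

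mmu-miR-21b: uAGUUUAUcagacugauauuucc

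mmu-miR-21c: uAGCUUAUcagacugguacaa

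Mmu-miR-21c has the same seed as mmu-miR-21a-5p and the same first 15 bases, and 16 of the 21 bases compared from the 5′ end were identical. Its substitutions against mmu-miR-21a-5p, with positions counted from the 5′ end, are A16G, G18A, U19C, U20A and G21A. Mmu-miR-21b was identical at 18 of 22 positions and differs by C4U, G18A, G21U and A22C, the first of which lies in the seed. Of 1738 mature mouse sequences in the table, only 2 carry the seed AGCUUAU, mmu-miR-21a-5p itself and mmu-miR-21c. The complementary target letters for this seed are AUAAGCU. The array has no separate probes named for miR-21b or miR-21c, and the probe sequences were not used here, so a share of the signal from these relatives was not tested.

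The precursor is shown to place both strands on 1 hairpin. It has 92 bases, on the minus strand at chr11:86584067-86584158, with the 5′ and the 3′ mature strand in capitals.

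Mir21a hairpin: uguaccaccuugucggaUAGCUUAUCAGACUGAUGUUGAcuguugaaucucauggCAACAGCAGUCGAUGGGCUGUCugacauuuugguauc

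The mature 5′ strand lies at chr11:86584120-86584141 and the 3′ strand at chr11:86584082-86584103. The whole hairpin lies within the span of the protein-coding gene Vmp1, at chr11:86583858-86683836, and begins 209 bases from the lower end of that span. Exons were not given in the table used. Mmu-miR-21b is encoded at chr3:29636768-29636790 on the plus strand and mmu-miR-21c at chr8:128278188-128278208 on the minus strand.

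MiR-21 was well above background on all 16 arrays. Levels below are log2 intensities after each array was scaled to its own 75th percentile, and the lowest usable level on this scale was 4.64. In the 3 phenobarbital controls miR-21 stood at 12.20, 11.99 and 12.28 (replicates 4, 5 and 6). The 3 untreated controls stood at 11.91, 12.35 and 12.39 (replicates 1, 2 and 3). The ranges of the control groups overlap, with untreated control 1 the lowest and untreated control 3 the highest of the 6. The Ctnnb1 tumours ran from 12.11 to 13.40 with a median of 12.47; replicates 1 to 7 read 12.20, 12.99, 12.11, 12.38, 12.47, 12.81 and 13.40. The 3 Ha-ras tumours stood at 13.32, 13.66 and 13.51. All 3 Ha-ras tumours lay above all 6 controls, while 4 of the 7 Ctnnb1 tumours did so. On the linear scale the 16 levels spanned 3854 units, in untreated control 1, to 12975 units, in Ha-ras tumour 2.

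**Figure D1:**
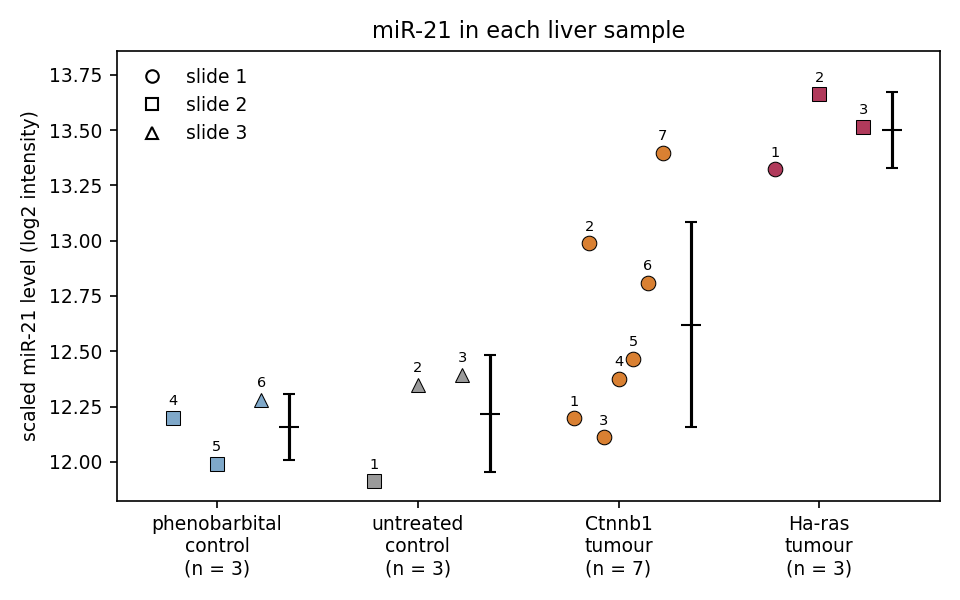
Scaled miR-21 level (log2 intensity, vertical axis) in each of the 16 samples by group. Each point is 1 array, its number is the replicate, its shape the slide, and the bar beside each group is mean ± SD. The Ha-ras tumours sit at 13.32 to 13.66, the 6 controls at 11.91 to 12.39, and the Ctnnb1 tumours span the gap between them.

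In order of their means, the groups were the phenobarbital controls at 12.16 ± 0.15 (SD, n = 3), the untreated controls at 12.22 ± 0.27 (SD, n = 3), the Ctnnb1 tumours at 12.62 ± 0.47 (SD, n = 7) and the Ha-ras tumours at 13.50 ± 0.17 (SD, n = 3). The control groups did not differ beyond their spread, and the ranges of the untreated controls and the Ctnnb1 tumours overlap, a pair that was not tested. The step from the Ctnnb1 to the Ha-ras tumours passed the test given below, although 1 Ctnnb1 tumour reached the Ha-ras range.

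Both probes gave the same order of groups. Each of them, A_54_P1307 and A_54_P1308, is printed 10 times per array, and all 160 spots of each over the 16 arrays were well above background. Of these, 11 and 3 spots were set aside as outliers. The coefficient of variation between spots of 1 array was 2.53 to 9.96% (median 6.37%) for A_54_P1307 and 1.88 to 5.29% (median 3.16%) for A_54_P1308. The standard error of a spot mean came to at most 0.045 and 0.024 on the log2 scale, small beside the differences between arrays. No spot of any array was saturated. With A_54_P1307 alone, the Ha-ras tumours were higher than the untreated controls by 1.21 in log2 (limma adjusted p = 0.00593). With A_54_P1308 alone, that difference was 1.35 (limma adjusted p = 0.00267).

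**Figure D2:**
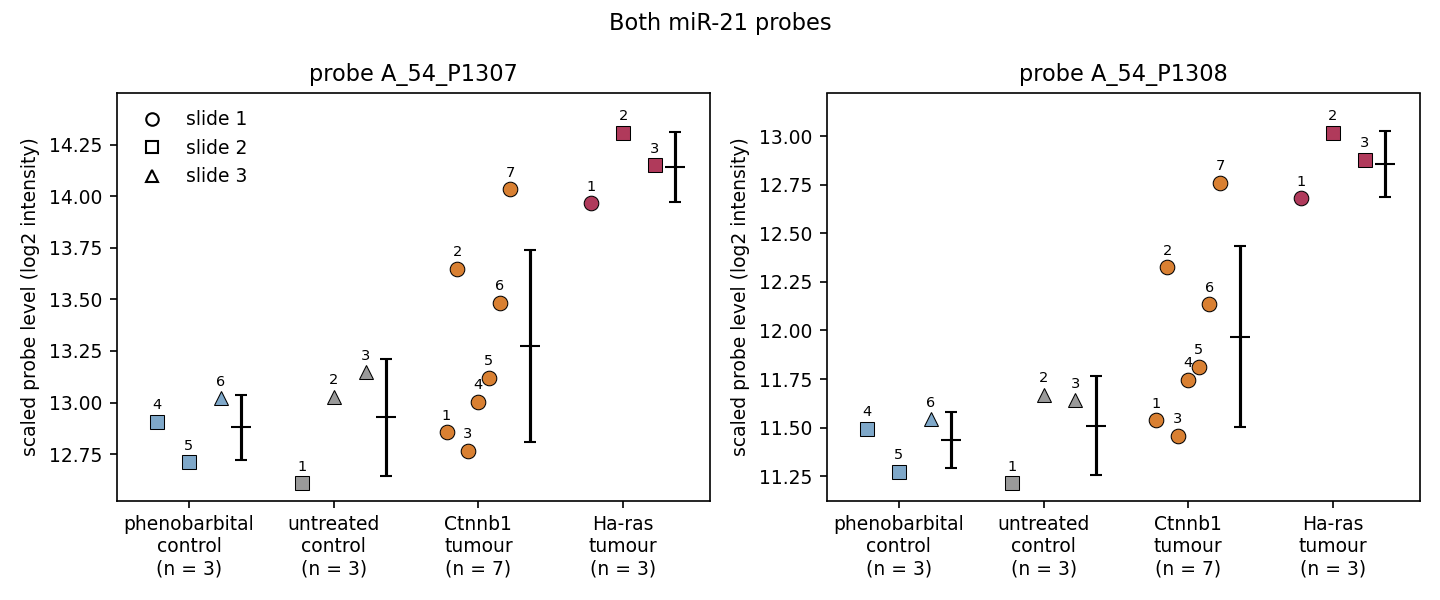
Scaled level (log2 intensity, vertical axes) of each miR-21 probe in each sample by group, probe A_54_P1307 on the left and A_54_P1308 on the right. Points are arrays numbered by replicate, shapes are slides and bars are mean ± SD. On both probes the 3 Ha-ras tumours lie above all 6 controls and Ctnnb1 tumour 7 lies within the Ha-ras range.

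The other strand, named miR-21* on the array, was not detected on any array. Its 4 probes have 20 spots per array, and 2 of 320 spots over the series were well above background. The probe means ran from -10.8 to 5.87 intensity units before scaling, against 2961 to 20843 for miR-21. No level or ratio of the 2 strands was therefore formed.

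The Ha-ras arm asks how tumours with a mutated Ras differ from liver of mice without phenobarbital. MiR-21 rose in the Ha-ras tumours, where all 3 lay above all 3 untreated controls. The difference was 1.28 in log2 (SE 0.27, 95% interval 0.69 to 1.87), or 2.43-fold (1.62 to 3.65), with a limma adjusted p of 0.00445. It was the third highest difference among the 96 miRNAs tested and the fifth by size in either direction. In this comparison 9.38% of tested miRNAs were called higher and 19.8% lower, and 16.7% lay higher with no overlap between the groups. The median difference over all tested miRNAs was -0.06. The call was lost in the deposited value table (1.13, limma adjusted p = 0.0778) and as a ratio to miR-122 of the same array (1.22, limma adjusted p = 0.104), while quantile normalization gave 0.85 (limma adjusted p = 0.0498). The exact two-sided permutation test gave p = 0.1, the smallest that 3 samples against 3 allow.

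The slides move with the groups. The 7 Ctnnb1 tumours shared slide 1 with Ha-ras tumour 1. On slide 2 were the other 2 Ha-ras tumours, untreated control 1 and 2 of the phenobarbital controls, and the remaining 3 controls were on slide 3. For miR-21 the controls on slide 2 (11.91, 11.99 and 12.20) all lay below those on slide 3 (12.28, 12.35 and 12.39). The spread among controls thus follows the slide. When slide entered the model as a fixed block, the miR-21 difference between Ha-ras tumours and untreated controls was 1.59 (limma adjusted p = 0.0219), and within slide 2 it was 1.68 (limma adjusted p = 0.0319). The latter sets 2 tumours against 1 control, whose spread is taken from the other samples. That control was the lowest of the 6. With slide as a random block the difference was 1.22 (limma adjusted p = 0.00307). The part of the slide in the difference was not tested further.

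The Ctnnb1 arm asks the same of tumours with mutated beta-catenin, all under phenobarbital. Of the 7 Ctnnb1 tumours, 5 lay above all 3 phenobarbital controls and 2 lay within their range. The difference of the means was 0.46 in log2 (SE 0.23, 95% interval -0.03 to 0.96), or 1.38-fold (0.977 to 1.94), and it did not pass the test (limma adjusted p = 0.261; unadjusted p = 0.0652). The exact two-sided permutation test gave p = 0.133, against a smallest possible 0.00833. The interval reaches from no change to a 1.94-fold rise, so a moderate rise could not be told from none with these arrays. No miRNA was called higher in this comparison (percent called 0) and 8.33% were called lower, while 21.9% had an unadjusted p under 0.05. Ctnnb1 tumours and phenobarbital controls were on different slides throughout. A model with slide as a fixed block, which links them only through the other groups, gave 0.84 (limma adjusted p = 0.608). Scaling to the 75th percentile over all mouse probes gave 0.69 (limma adjusted p = 0.688) and unscaled signals gave 0.86 (limma adjusted p = 0.478). The ratio to miR-122 gave 0.88 (limma adjusted p = 0.183). Nearest to a call was scaling to the median of the mouse probes detected on all arrays (0.62, limma adjusted p = 0.0778).

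The tumour kinds were then set against each other. MiR-21 was lower in the Ctnnb1 than in the Ha-ras tumours by 0.88 in log2 (SE 0.23, 95% interval of the signed difference -1.38 to -0.38), or 1.84-fold (1.30 to 2.60), with a limma adjusted p of 0.0179 and an exact two-sided permutation p of 0.0333. Of the 7 Ctnnb1 tumours, 6 lay below all 3 Ha-ras tumours, and tumour 7, at 13.40, lay above the lowest of them. In this comparison 13.5% of tested miRNAs were called lower and 16.7% higher in the Ctnnb1 tumours. The call was lost in 8 of 20 other settings and in 1 of 10 fits without 1 array. It was lost without Ha-ras tumour 2 (-0.80, limma adjusted p = 0.0837), with a fixed slide block (-0.70, limma adjusted p = 0.284) and with quantile normalization (-0.44, limma adjusted p = 0.217). It was also lost within slide 1, where 1 Ha-ras tumour stands against 7 Ctnnb1 tumours (-0.70), and in 4 further settings listed in the closing section. All Ctnnb1 tumours were on slide 1, so the fixed block rests on that same Ha-ras tumour and gives the same difference. Against miR-122, the main miRNA of hepatocytes, measured on the same array, the difference was -0.29 (limma adjusted p = 0.455), while scaling over all mouse probes gave -1.43 (limma adjusted p = 0.00189). MiR-122 itself was lower in the Ctnnb1 than in the Ha-ras tumours by 0.59 in log2 (limma adjusted p = 0.0407). This call depended on the scaling. The signed difference was -1.13 over all mouse probes (limma adjusted p = 0.00703) and -0.77 unscaled (limma adjusted p = 0.0932). It was -0.49 with scaling to the median of the mouse probes detected on all arrays (limma adjusted p = 0.0809). Quantile normalization gave -0.04 (limma adjusted p = 0.896).

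The difference between the arms' tumour effects was also tested. The tumour-against-control difference of miR-21 was smaller in the Ctnnb1 arm by 0.82 in log2 (SE 0.36, signed interval -1.59 to -0.05), which did not pass (limma adjusted p = 0.23; unadjusted p = 0.0384). In that test 2.08% of miRNAs were called, both with a lower value in the Ctnnb1 arm. It came to -0.32 with quantile normalization and -0.34 as a ratio to miR-122. At the other end, scaling over all mouse probes gave -1.17 (limma adjusted p = 0.19). A rise of miR-21 limited to the Ha-ras arm is thus not shown by these arrays.

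The control groups, both of non-tumour liver, were compared with each other. The labels do not tell whether these groups differ in DEN or its age of injection as well as in phenobarbital. The phenobarbital controls differed from the untreated controls by -0.06 in log2 (SE 0.27, 95% interval -0.65 to 0.53; limma adjusted p = 0.947; exact two-sided permutation p = 0.7). The ranges overlap, and the sign depended on the setting. No miRNA was called in either direction (percent called 0), while 6.25% had an unadjusted limma p under 0.05.

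**Figure D3:**
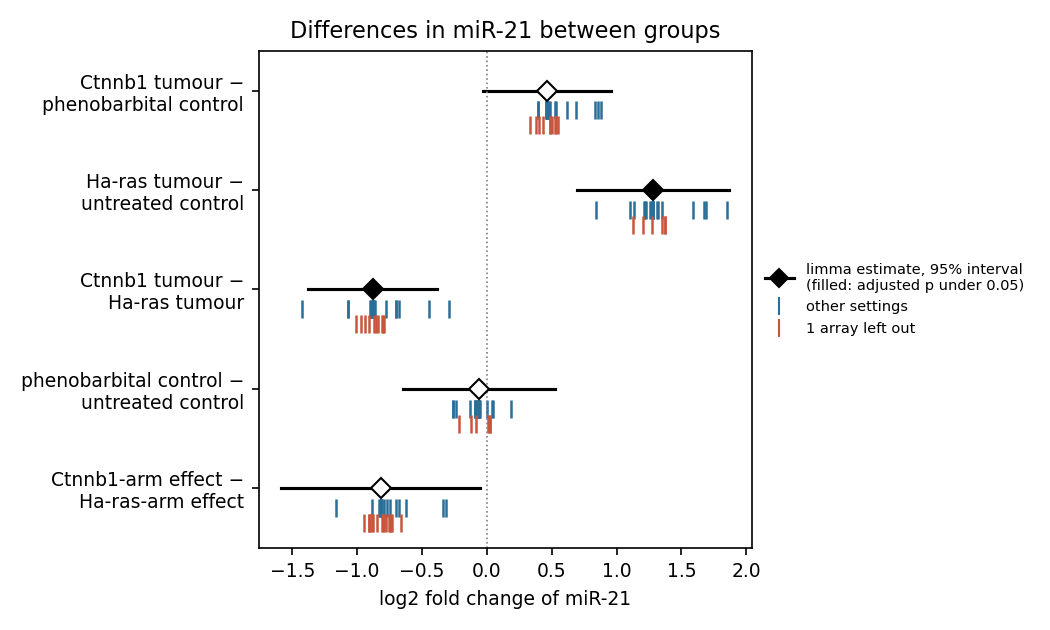
Log2 fold change of miR-21 (horizontal axis) in the 5 comparisons, first group minus second. Diamonds and lines are limma estimates with 95% intervals, filled where the adjusted p is under 0.05, blue ticks are other processing settings and red ticks are fits without 1 array. The Ha-ras tumours lie above their controls under all settings drawn (0.85 to 1.85), and the difference between control groups lies on both sides of 0.

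The SD of miR-21 lay above the median SD of tested miRNAs in all 4 groups. Its SD among the Ctnnb1 tumours was 0.47, against a median SD of 0.28 over the 96 tested miRNAs. It was 0.27 against 0.15 among the untreated controls and 0.15 against 0.10 among the phenobarbital controls. Among the Ha-ras tumours its SD of 0.17 was close to the median of 0.16. Its rank by SD, of 96, was 16 among the Ctnnb1 tumours and 26 among the untreated controls. It was 28 among the phenobarbital controls and 43 among the Ha-ras tumours. These medians include miRNAs at the floor, such as miR-146b with an SD of 0 among the Ctnnb1 tumours. The 7 Ctnnb1 tumours differ by 1.29 in log2 between tumours 3 and 7, about the size of the Ha-ras difference itself. Tumours 7, 2 and 6 were the high ones and tumours 3 and 1 the low ones.

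This spread was set beside markers of cell types that liver tissue can hold, for 6 markers from a short list, each detected in all 7 tumours. Other cell-type markers detected in all 7, namely miR-192, miR-194, miR-148a, miR-146a and miR-144, were not set beside it. MiR-142-3p, a leukocyte miRNA, read 7.74, 7.91, 7.39, 7.90, 8.14, 8.38 and 8.46 in tumours 1 to 7. It was highest in tumour 7 and lowest in tumour 3, as was miR-21. Over these 7 tumours Pearson's r was 0.79 (exact permutation p = 0.0341, adjusted over the 6 markers 0.205) and Spearman's rho 0.89 (exact permutation p = 0.0123, adjusted 0.0738), and r without the 2 tumours farthest from the median of miR-142-3p was 0.48. The relation did not pass the adjustment, and r was lower without those 2 tumours. MiR-223, a miRNA of neutrophils and monocytes, gave r = 0.64 (exact permutation p = 0.126, adjusted 0.378), rho = 0.64 (exact permutation p = 0.139, adjusted 0.417) and r = 0.86 without its 2 farthest tumours. For miR-122, r was -0.48 (exact permutation p = 0.265, adjusted 0.456), rho -0.21 (exact permutation p = 0.662, adjusted 0.993), and r without 2 tumours -0.02. This r was -0.96 with quantile normalization (exact permutation p = 0.00952, adjusted 0.0571) and -0.12 unscaled, so its size depended on the scaling. The remaining 3 markers, miR-126-3p of endothelium, miR-451 of erythrocytes and miR-199a-3p of stromal cells, gave r of -0.46, -0.26 and -0.03 (exact permutation p = 0.304, 0.574 and 0.955), and these signs depended on the scaling. All 7 tumours were on 1 slide, so these values are within 1 slide.

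**Figure D4:**
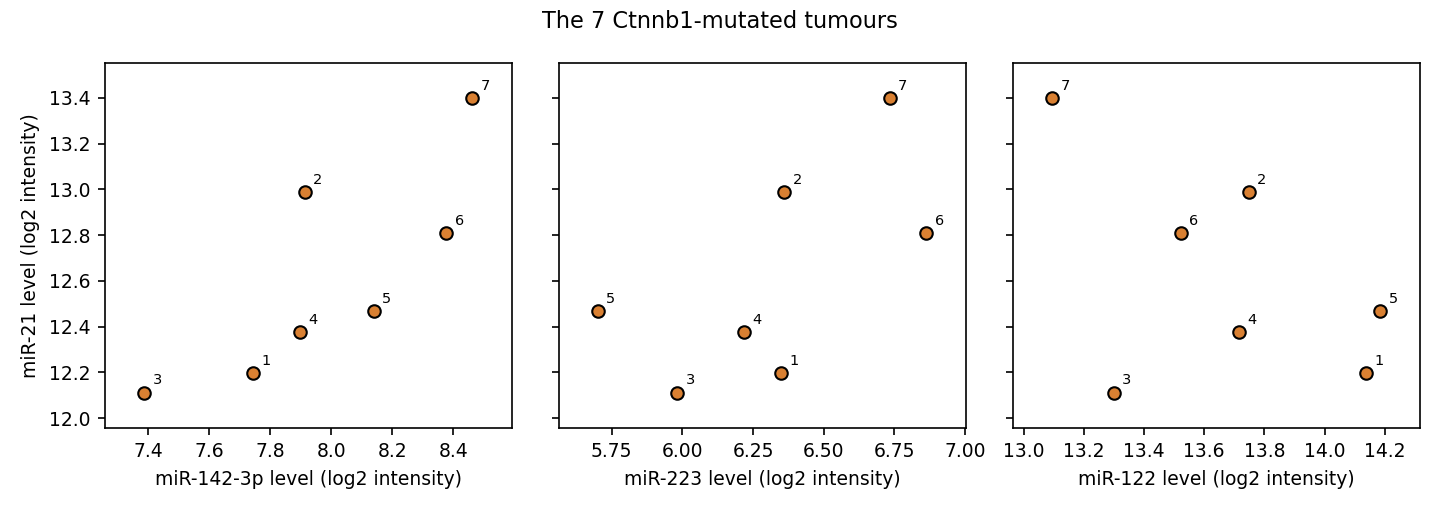
MiR-21 level (vertical axes) against miR-142-3p, miR-223 and miR-122 (horizontal axes, left to right), all in log2 intensity, for the 7 Ctnnb1 tumours, numbered by replicate. Tumour 7 is highest for miR-21 and miR-142-3p and lowest for miR-122, and no relation passed adjustment over the 6 markers.

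Across the groups, fuller lists of cell-type markers gave the following. Tissue RNA was measured, so fewer cells of a type and less RNA per cell cannot be told apart. The 4 hepatocyte markers (miR-122, miR-192, miR-194 and miR-148a) were all tested and none was called in either tumour-against-control comparison. Their summed linear level was 18415 to 25068 in the Ha-ras tumours, 20458 to 22238 in the untreated controls, 10915 to 21146 in the Ctnnb1 tumours and 18313 to 21658 in the phenobarbital controls. All 16 samples thus carried the hepatocyte signal of liver, with miR-122 at 13.09 or higher in log2 on all arrays.

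Of 6 leukocyte markers, 3 were tested, and none was called in either tumour-against-control comparison. Their summed level in the Ha-ras tumours, 176 to 455, overlapped that of the untreated controls, 235 to 449, and their median difference was -0.45, against 1.28 for miR-21. MiR-150 and miR-155, which mark lymphocytes and activated leukocytes, were detected on 0 arrays. The leukocyte sums of the Ctnnb1 tumours (263 to 507) and phenobarbital controls (357 to 413) overlapped too. MiR-223 was higher in the Ctnnb1 than in the Ha-ras tumours by 0.82 in log2 (limma adjusted p = 0.0188), the direction opposite to that of miR-21. With scaling over all mouse probes this was 0.36 (limma adjusted p = 0.41), and the leukocyte median in the Ha-ras arm became 0.12.

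Of 6 mesenchymal and stellate cell markers, 2 were tested. MiR-199a-3p fell by 1.51 in the Ha-ras tumours (limma adjusted p = 5.09e-04) and by 1.16 in the Ctnnb1 tumours (limma adjusted p = 0.00187). MiR-143 was not well above background on any Ha-ras tumour, and stood at 4.67 to 5.67 in the untreated controls (limma adjusted p = 0.0146). The summed level was 55.9 to 59.2 in the Ha-ras tumours and 90.3 to 175 in the untreated controls, with no overlap. It was 58.9 to 94.2 in the Ctnnb1 tumours and 134 to 144 in the phenobarbital controls. MiR-214 and miR-145 were detected on 0 arrays. The values of both tested markers stayed below those of the controls under the 4 other scalings, though 0 of 2 were called in either arm over all mouse probes or unscaled. The part of this lower stromal signal in the level of miR-21 was not tested. The 1 endothelial marker tested of 2 and the 2 erythroid markers tested of 3 had 0 calls in these comparisons.

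The other miRNAs known to be induced through Ras, MAP kinase and AP-1 signalling make a list of 4 with miR-21. It includes miR-31 and the paired miR-221 and miR-222, which target the cell cycle inhibitor p27. MiR-222 was detected on 0 arrays, which left 3. MiR-31 stood at 5.98, 5.99 and 5.88 in the Ha-ras tumours and at 5.04, 5.05 and 4.80 in the untreated controls, where 2 of 3 arrays detected it. MiR-31 rose by 0.99 in log2 in the Ha-ras tumours (limma adjusted p = 1.91e-05). In the Ctnnb1 tumours it was detected on 1 of 7 arrays, and its difference from the phenobarbital controls was -0.09 (limma adjusted p = 0.604). MiR-221 differed by 0.53 in the Ha-ras arm (limma adjusted p = 0.0549) and by 0.25 in the Ctnnb1 arm (limma adjusted p = 0.411). So 2 of 3 tested members, miR-21 and miR-31, rose in the Ha-ras tumours, where 9.38% of all tested miRNAs were called higher and 19.8% lower, none fell, and the median was 0.99. MiRNAs were tested if all arrays of a group detected them, and miR-31 met this only in the Ha-ras tumours. Its place in the count, and the median it sets, thus depend in part on its being high there. The other member counted is miR-21 itself, and miR-221 was not called. In the Ctnnb1 arm 0 of 3 were called and the median was 0.25, beside -0.05 over all tested miRNAs. All 3 were lower in the Ctnnb1 than in the Ha-ras tumours (median -0.88, the value of miR-21 itself, beside 0.08 over all tested). MiR-221 was lower by 0.50 (limma adjusted p = 0.038) and miR-31 by 1.28 (limma adjusted p = 7e-08). The miR-31 value rests on the floor in 6 of the 7 Ctnnb1 tumours. Only miR-31 kept the call of a lower level in the Ctnnb1 tumours under all 4 other scalings. MiR-221 lost it with the median scaling (-0.39, limma adjusted p = 0.117) and unscaled (-0.70, limma adjusted p = 0.119). It kept the call over all mouse probes (-1.06, limma adjusted p = 0.00338) and with quantile normalization (-0.70, limma adjusted p = 0.00383). MiR-21 lost its call only with quantile normalization (-0.44, limma adjusted p = 0.217). Between the control groups 0 of 3 were called (median -0.20). Under the 4 other scalings 2 or 3 of the 3 rose in the Ha-ras tumours, and without any 1 array of that arm 2 of 3 did.

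The list for NF-kappaB and STAT3, other inducers of miR-21 or of inflammatory miRNAs, held miR-146a, miR-146b, miR-155 and miR-181b, of which the first 2 were tested. MiR-146b read 8.26, 9.17 and 7.67 in the Ha-ras tumours and at most 4.99 in the untreated controls, where 2 of 3 arrays detected it. It rose by 3.56 in log2 (limma adjusted p = 3.78e-08), the only call of 2 (list median 1.84). MiR-146b, too, was tested only through the Ha-ras tumours, where it is high, so this count depends in part on the filter. In the Ctnnb1 tumours and phenobarbital controls it was detected on 0 arrays, so no fold was formed there, and it was at least 13.1-fold higher in the Ha-ras than in the Ctnnb1 tumours (limma adjusted p = 1.94e-09). MiR-146a gave 0.12 in the Ha-ras arm (limma adjusted p = 0.709) and 0.07 in the Ctnnb1 arm (limma adjusted p = 0.822).

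Of 15 miRNAs reported as raised in liver cancer, miR-21 among them, 8 were tested. In the Ha-ras tumours 3 rose, miR-21, miR-34a and miR-96, 0 fell and the median was 0.53, beside 9.38% of all tested miRNAs called higher and 19.8% lower. MiR-96 was tested only because all Ha-ras tumours detected it, so its place among these 3 depends in part on its being high there. MiR-34a, a known target of p53, read 8.68, 8.97 and 8.08 in the Ha-ras tumours and 7.36, 5.67 and 6.79 in the untreated controls, a rise of 1.97 in log2 (limma adjusted p = 0.00845). MiR-96 was not well above background on any untreated control and was at least 1.76-fold higher in the Ha-ras tumours (limma adjusted p = 0.0374). In the Ctnnb1 tumours 0 of 8 were called, with a median of 0.20. Of 18 reported as lowered, 14 were tested. In the Ha-ras tumours 5 of 14 fell and 0 rose (median -0.37), beside 19.8% called lower over all tested miRNAs. Among the 5 were miR-199a-3p, miR-125b-5p, which fell by 0.44 (limma adjusted p = 0.0229), and let-7c, which fell by 0.43 (limma adjusted p = 0.0146). In the Ctnnb1 tumours 3 fell, miR-199a-3p, miR-195 and miR-497, and 0 rose (median -0.35), beside 8.33% called lower over all tested miRNAs. These losses depended on the scaling: over all mouse probes, which moves the median of all tested miRNAs in the Ha-ras arm from -0.06 to 0.28, 0 of 14 were called in either arm, the Ha-ras median of the list was 0.18, and let-7c turned to 0.14. Unscaled signals also left 0 of 14 called. The 3 rises in the Ha-ras tumours were 1 to 3 without 1 array and 2 to 5 under the other scalings.

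**Figure D5:**
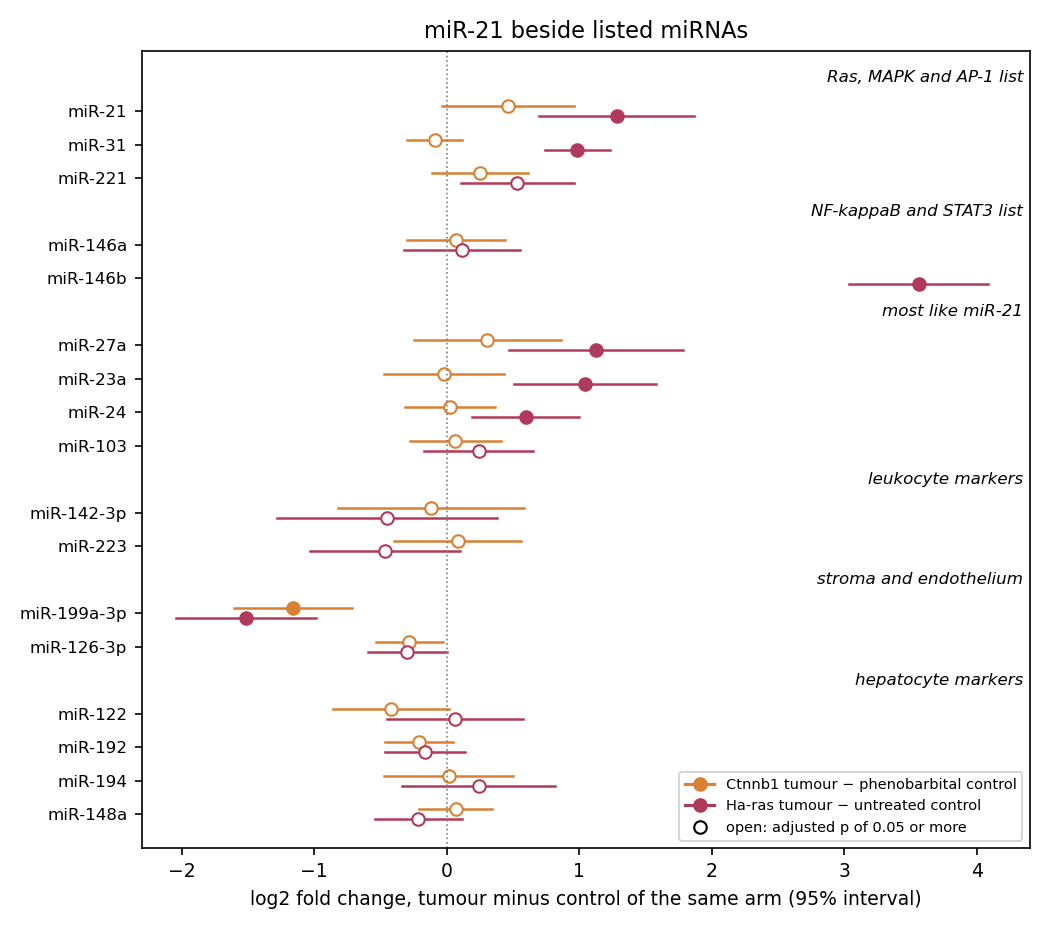
Log2 fold change with 95% interval (horizontal axis) of miR-21 and miRNAs of the named lists, for Ctnnb1 tumours minus phenobarbital controls (orange) and Ha-ras tumours minus untreated controls (red). Filled points have an adjusted p under 0.05, and miR-146b has no orange point because neither group detected it. MiR-21, miR-31, miR-146b, miR-27a, miR-23a, miR-24 and miR-199a-3p are filled in red, the last to the left of 0, and among the miRNAs drawn only miR-199a-3p is filled in orange.

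The profile of miR-21 over the 16 arrays was compared with those of the 71 other miRNAs detected on all arrays, by the root mean square difference of log2 values centred on each miRNA's mean. A flat profile would lie 0.56 from that of miR-21, and 17 of the 71 lay closer than that. The closest were miR-27a at 0.33, miR-23a at 0.36, miR-221 at 0.39, miR-24 at 0.44 and miR-103 at 0.45. All 5 recurred with no scaling, the all-probe percentile or the median scaling, and 4 of 5 with quantile normalization. MiR-23a, miR-27a and miR-24 are made from a shared primary transcript, and miR-24 also from another locus.

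Of these, miR-27a was closest to miR-21 in size. Its mean was 8.24 ± 0.25 (SD, n = 3) in the Ha-ras tumours, 7.11 ± 0.40 (SD, n = 3) in the untreated controls, 7.43 ± 0.46 (SD, n = 7) in the Ctnnb1 tumours and 7.12 ± 0.37 (SD, n = 3) in the phenobarbital controls. In the Ha-ras arm the differences were 1.12 for miR-27a, 1.04 for miR-23a, 0.60 for miR-24 and 0.24 for miR-103, and in the Ctnnb1 arm they were 0.31, -0.02, 0.03 and 0.07. These miRNAs were chosen for their likeness on the same arrays, so their differences are a description.

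In the value table that the submitters deposited, miR-21 takes only 4 distinct log2 values over the 16 arrays, 12.68, 13.34, 14.16 and 14.61, and ranks first or second in all columns. The group means there were 12.90 for both control groups, 13.36 for the Ctnnb1 tumours and 14.03 for the Ha-ras tumours. The tumour groups thus stood in the same order as from the scanner intensities, while the control groups were tied.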

How the data were processed

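MiRNA levels were measured in 16 mouse liver samples, 1 array each. The deposited scanner files hold intensities that the authors extracted with Agilent Feature Extraction 10.7.3.1, per the file headers, and R 2.14.1 stands in the submitters' processing notes. The deposited value table holds log2 values for 147 entries, -1 to 14.88, with column medians of 5.57 to 5.62. Its columns correlated with the scanner levels at r = 0.81 to 0.86, so higher means more RNA, and the scaling behind it is unknown here.

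From the processed signal, outlier spots were dropped, spots of a probe averaged, each array divided by its 75th percentile over 117 mouse probes detected on all arrays (386 to 1248 units), floored at 24.96 units, log2 transformed, and probes averaged. Precision is limited by the number of arrays; 83 to 117 miRNAs were detected per array. Groups came from sample titles. Differences were fitted with limma 3.58.1 in R 4.3.3 (4 group means, 16 arrays, no covariates), with Benjamini-Hochberg adjustment over 96 miRNAs detected on all arrays of a group and a threshold of 0.05; single values also by exact permutation. The fit was checked on simulated data. A bound ("at least") sets the brighter group's mean against, per dim array, the higher of its lowest detected signal and the probe's own. Alternatives covered scaling, background, spot summary, filters, slide and replicate blocks and left-out arrays. The named miRNAs are miR-21, miR-21*, list members tested and the 5 closest profiles. The members and lists were chosen with earlier results of these data known. No replicate number pairs samples in the labels.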

Additional observations from a re-analysis of the deposited data

Results flagged for a closer look

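The following results beside miR-21 stood apart. The tumour-against-control difference of miR-146b differed between the arms by -3.56 in log2 (limma adjusted p = 1.44e-06, Ctnnb1 arm minus Ha-ras arm), with the Ctnnb1 arm at the floor in both groups. That of miR-31 differed by -1.08 (limma adjusted p = 1.68e-04), and the Ctnnb1 arm detected it on 1 of 7 tumours and 1 of 3 controls. Both miRNAs were tested only through the Ha-ras tumours, where they are high. MiR-497 in Ctnnb1 tumour 5 stood at 5.81, apart from the next highest tumour at 5.33, and it was 1 of 32 named miRNAs checked in this way, of which chance alone would mark about 1 in 20.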

How the results depend on the processing

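MiR-21 was higher in the Ha-ras tumours than in the untreated controls under all 20 other settings (0.85 to 1.85) and in all 6 fits without 1 array (1.13 to 1.37), where the limma adjusted p was 0.00884 to 0.0214. It missed the threshold in the deposited table (1.13), as a ratio to miR-122 (1.22, chosen after seeing the data) and in the exact permutation test (1.28, p = 0.1, the smallest possible). The Ctnnb1 to phenobarbital control difference was called under 0 of 19 settings (0.39 to 0.88) and without 1 array lay between 0.33 and 0.55. The Ctnnb1 to Ha-ras difference missed the threshold with quantile normalization (-0.44), in the deposited table (-0.67), with all 566 mouse miRNAs tested (-0.88, limma adjusted p = 0.128), with only the groups compared (-0.88, limma adjusted p = 0.0507), as a ratio to miR-122 (-0.29), with slide as a fixed block (-0.70), within slide 1 (-0.70) and with the replicate block (-1.07, limma adjusted p = 0.0971). Without 1 array it ran from -1.01 to -0.79 and was called in 9 of 10 fits. The difference between control groups turned positive as a ratio to miR-122 (0.042), with the slide block (0.047) and within slide 2 (0.18), and without 1 array ran from -0.21 to 0.027 (0.022 without phenobarbital control 5, 0.0049 without untreated control 2, 0.027 without untreated control 3). The difference between arms ran from -0.95 to -0.67 without 1 array and passed with the replicate block (-0.89, limma adjusted p = 0.0409). Whether replicate numbers pair samples is not stated in the labels. The correlations of same-numbered deviations were 0.24, -0.06 and -0.77 in the Ctnnb1 arm and 0.58, -0.68 and -0.09 in the Ha-ras arm. These pairs are too few to settle the question. With the replicate block, miR-21 gave 0.39 (limma adjusted p = 0.212) in the Ctnnb1 arm and 1.28 (limma adjusted p = 0.0211) in the Ha-ras arm, and calls over all miRNAs moved from 8 to 0, 28 to 16 and 29 to 3.

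Calls over all miRNAs moved more than miR-21 did. In the Ctnnb1 arm the 8 calls became 0 with the all-probe percentile, no scaling or the miR-122 ratio, 1 with slide fixed and 20 with slide random, 2 with normexp, 4 with the median scaling or the miRNAs detected on all arrays, 5 with all miRNAs tested, and 5 to 18 without 1 array. In the Ha-ras arm the 28 calls (9 higher, 19 lower) became 12 with the all-probe percentile (12 higher, 0 lower; median of all miRNAs 0.28), 7 unscaled, 12 in the deposited table, 13 with normexp, 18 with all miRNAs tested, 5 as a ratio to miR-122, 9 with slide fixed, 2 within slide 2, and 13 to 26 without 1 array. Between tumour kinds the 29 calls became 61 as a ratio to miR-122, 7 unscaled, 19 with normexp or the miRNAs detected on all arrays, 6 with all miRNAs tested, 13 with only the groups compared, 8 with slide fixed, 5 within slide 1, and 5 to 28 without 1 array. Between control groups 0 became 5 from total gene signals or the deposited table and 1 with all miRNAs tested. Among the Ctnnb1 tumours, r with miR-199a-3p became 0.16 and 0.42, and with miR-126-3p 0.14 and 0.39, under the all-probe percentile and no scaling, with miR-451 0.23 unscaled, and with miR-122 -0.96 with quantile normalization and -0.12 unscaled; these settings were chosen after seeing the data. For each change the cause was not tested. No limit of depth touched miR-21, while miR-31, miR-146b, miR-96 and miR-143 lay at the floor on some arrays.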
